A study of Mus musculus with 8 samples.

Results

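Adenylyl cyclases and phosphodiesterases set the level of the cyclic nucleotides cAMP and cGMP in a cell. Their genes were taken as every gene whose deposited symbol is Adcy with a number or Pde with a number and at most 1 further letter, which gave 35 of 20719 genes, 10 of them adenylyl cyclases and 25 of them Pde genes. Expression was measured in ATCL7, a single immortalized line from a mouse adrenocortical tumour of male origin, after 24 h in medium with 0.025% each of fetal bovine and horse serum. The BIO group had 0.5 µM 6-bromoindirubin-3′-oxime (BIO), an inhibitor of glycogen synthase kinase 3 that activates Wnt signalling through β-catenin, and the vehicle group had 0.01% DMSO. The titles number 4 pairs, a BIO and a vehicle sample in each, and 1 Mouse Gene 1.1 ST array was hybridised for every one of the 8 samples.

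Adenylyl cyclases make cAMP from ATP when a receptor coupled to the stimulatory G protein is occupied, and phosphodiesterases hydrolyse cAMP, cGMP or both. In the adrenal cortex the receptor is that of adrenocorticotropic hormone, and cAMP acts through protein kinase A to drive the synthesis of steroids. Mouse Pde8 enzymes are known to restrain steroid synthesis in the adrenal, Pde2a lowers cAMP in its aldosterone-producing zone, and human PDE8B and PDE11A variants have been linked to adrenal hyperplasia.

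Of the 35 genes, 6 were lower in BIO (Adcy7, Pde1b, Pde8a, Pde4d, Pde4b and Pde12) and 2 were higher (Pde5a and Pde3b), while 27 did not pass. A gene passed at an adjusted p below 0.05 in limma, fitted over all 20719 genes with the pair as a block, and under this rule 32.7% of all genes passed, 17% higher and 15.6% lower. The 8 that passed are 22.9% of the 35, a smaller share than over all genes in this fit. The order turned in some alternatives: 25.7% of the members passed in pairs 3 and 4 alone (24.6% of all genes), and 71.4% of the 14 members left by a filter at the median brightness (59.7%). All changes of the family were modest: the lowest was −0.49 log2 for Adcy7 and the highest 0.37 log2 for Pde5a. The log2 change lay below 0 in 26 of the 35 genes (74.3%, against 53.9% of all genes), and its median was −0.07, against −0.01 over all genes. With cyclic loess normalization the split was 10 lower and 1 higher, in place of 6 and 2, which is 31.4% of the members against 32.3% of all genes. By the authors' deposited paired test, adjusted over all genes, 4 members passed (Adcy7, Pde1b, Pde8a and Pde4d, all lower), against 19.1% of all genes.

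Much of this family was dim on the arrays. A gene's mean over the 8 arrays lay below the median of all genes for 21 of the 35, and 1 of these 21 passed (4.76%, against 13.4% of all genes on that side). Of the 14 members above the median, 7 passed (50%, against 51.9%). Whether a dim probe set lies above background is unknown, because the values come without detection calls, and brightness also depends on the probes, so it does not order the genes by amount of RNA.

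The arrays were alike in scale, with medians of 5.7 to 5.73 log2, and their number limits the precision. Nothing in the labels states whether the pairs came from different cultures, and the p-values therefore measure only the spread among these samples, which may be technical. Axin2, the feedback inhibitor that Wnt signalling induces, rose in 4 of 4 pairs (log2 change 3.02 ± 0.07, SE), which checks the treatment labels. Of 9 markers of the adrenal cortex, which include the pathway genes Mc2r and Star described below, all 9 were measured, at vehicle means of 4.81 to 11.84 log2, with 2 of them (Hsd3b1 and Nr0b1) below the median brightness of all genes. All 9 were lower in BIO, against 15.6% of all genes. Of the 9, 7 lay above the median brightness, where 51.9% of all genes passed in either direction. The mean over the list ran from 8.51 to 8.95 log2 on the vehicle arrays and from 7.7 to 8 on the BIO arrays. In such bulk samples fewer cells of a type and less RNA per cell cannot be told apart. Markers of the adrenal medulla (7 genes, vehicle means of 4.17 to 5.49 log2), endothelium (5, 3.74 to 4.94), fibroblasts (6, 3.6 to 6.18) and photoreceptors (6, 3.86 to 5.39) were all below the median brightness. Among these, Slc18a1 of the medulla rose and Col1a1 of the fibroblasts fell (log2 changes of 0.27 and −0.23). They are 14.3% and 16.7% of their lists, against 13.4% of all genes below the median brightness. No endothelial or photoreceptor marker passed. Of 6 macrophage markers, Cd68 and Cd14 fell (33.3%, against 32.7% of all genes), from vehicle means of 7.7 and 6.62 log2. Cd68 lay above the median brightness and Cd14 below it. The defining Ptprc and Emr1, and also Csf1r and Itgam, did not pass, at vehicle means of 4.56, 4.08, 4.39 and 4.18 log2. The list mean ran from 5.22 to 5.35 on vehicle and from 5.02 to 5.1 on BIO arrays. The part of these shifts in the results below was not tested.

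The promoters of the 6 genes with an adjusted p below 0.01 are shown because these are the members whose calls lie furthest from the threshold, so that their upstream regions can be compared. Each run is the 250 bases before the most upstream transcription start in the promoter set used (plus strand for all 6, 5′ to 3′). The set came from RefSeq (assembly GRCm38.p6) and has no entry for 9 of the 35 members, so starts further upstream may exist. The starts in this set are 3 each for Adcy7 and Pde1b, 4 for Pde4b and 1 for each of the others. Which start these cells use was not tested. Capitals mark matches, on either strand, to the core of a cAMP response element (TGACG), a TCF/LEF site (CTTTGAA), an aryl hydrocarbon receptor site (TGCGTG) or a steroidogenic factor 1 site (AAGGTCA). The positions are chr8:88282742-88282991 for Adcy7, chr15:103502784-103503033 for Pde1b, chr7:81213015-81213264 for Pde8a, chr13:108653927-108654176 for Pde4d, chr4:102421305-102421554 for Pde4b and chr3:122728908-122729157 for Pde5a.
Adcy7: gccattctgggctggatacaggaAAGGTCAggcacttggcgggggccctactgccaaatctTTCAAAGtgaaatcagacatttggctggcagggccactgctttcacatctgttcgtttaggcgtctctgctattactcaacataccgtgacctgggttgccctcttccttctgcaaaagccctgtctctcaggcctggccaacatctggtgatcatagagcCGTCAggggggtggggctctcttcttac
Pde1b: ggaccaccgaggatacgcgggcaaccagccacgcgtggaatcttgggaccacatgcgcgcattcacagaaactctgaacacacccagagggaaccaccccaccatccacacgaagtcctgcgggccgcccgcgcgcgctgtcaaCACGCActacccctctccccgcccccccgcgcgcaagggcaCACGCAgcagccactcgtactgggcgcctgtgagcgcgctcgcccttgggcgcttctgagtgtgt
Pde8a: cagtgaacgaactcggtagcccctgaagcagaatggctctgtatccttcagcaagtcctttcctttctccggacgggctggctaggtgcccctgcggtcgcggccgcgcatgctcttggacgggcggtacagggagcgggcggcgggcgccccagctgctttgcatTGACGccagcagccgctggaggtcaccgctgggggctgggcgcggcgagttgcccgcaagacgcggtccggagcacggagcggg
Pde4d: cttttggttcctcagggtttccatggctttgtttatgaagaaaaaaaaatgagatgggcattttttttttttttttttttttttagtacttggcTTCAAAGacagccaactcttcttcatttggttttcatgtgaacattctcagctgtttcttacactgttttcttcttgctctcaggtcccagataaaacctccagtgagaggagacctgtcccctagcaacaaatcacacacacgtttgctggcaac
Pde4b: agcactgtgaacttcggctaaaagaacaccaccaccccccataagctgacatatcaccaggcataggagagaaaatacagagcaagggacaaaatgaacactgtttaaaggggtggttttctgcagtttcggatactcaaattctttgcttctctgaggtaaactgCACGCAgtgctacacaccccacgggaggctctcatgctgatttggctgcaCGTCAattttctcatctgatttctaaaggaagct
Pde5a: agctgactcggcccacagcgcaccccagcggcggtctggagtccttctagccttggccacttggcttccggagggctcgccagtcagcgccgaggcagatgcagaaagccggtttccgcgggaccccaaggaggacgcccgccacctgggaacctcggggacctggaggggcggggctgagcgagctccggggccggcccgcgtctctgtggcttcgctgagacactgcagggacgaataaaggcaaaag

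Adcy7 held a match to TGACG from 28 bases before its start, to CTTTGAA from 189 and to AAGGTCA from 227. Pde8a and Pde4b held TGACG from 84 and 34 bases before theirs. Pde4d held CTTTGAA from 156 bases before its start. TGCGTG occurred at 106 and 65 bases before the start of Pde1b and at 84 bases before that of Pde4b. Pde5a, which rose, held none of these letters in its window, and Pde3b, which also rose, had no promoter entry. Of the 35 members, 26 had 50 promoters in the table. Adcy6, Adcy8, Pde3a, Pde3b, Pde6a, Pde6c, Pde6g, Pde7a and Pde9a had no entry. In the same window, 7 of the 50 held TGACG (17.8% of all 32851 promoters did), 3 held CTTTGAA (4.46%), 4 held TGCGTG (6.87%) and 2 held AAGGTCA (4.08%). The full cAMP response element TGACGTCA, which contains TGACG, was in 0 of the 50 and in 1.55% of all promoters. These matches are letters in a window and were not tested as binding sites.

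Among the 10 adenylyl cyclases, Adcy7 fell and the other 9 did not pass. Adcy7 encodes a membrane cyclase that βγ subunits of G proteins stimulate. Its log2 values in vehicle replicates 1 to 4 were 6.82, 6.81, 7.14 and 7.13, and those in BIO were 6.42, 6.41, 6.44 and 6.67. Every BIO array lay below every vehicle array, and BIO replicate 4 stood above the other BIO arrays. Expression was 1.4-fold lower (log2 change −0.49 ± 0.06, SE, limma adjusted p = 0.000409, lower in 4 of 4 pairs).

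The other cyclases that βγ subunits stimulate, Adcy2 and Adcy4, did not pass, and their difference from Adcy7 was not tested. Adcy2 had a log2 change of −0.10 (95% interval −0.22 to 0.02) and Adcy4 one of 0 (−0.15 to 0.15), both at vehicle means below the median of all genes (4.26 and 5.59 log2). The calcium-inhibited Adcy6 was well above that median and was close in both groups, with vehicle values of 8.63, 8.79, 8.92 and 8.92 and BIO values of 8.7, 8.76, 8.79 and 8.85. Its log2 change was −0.04 (95% interval −0.15 to 0.07). Adcy5, the other calcium-inhibited cyclase, had a log2 change of −0.07 at a vehicle mean of 4.7.

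Adcy9 and Adcy3 came closer to the threshold. Adcy9, a widely expressed cyclase that forskolin activates poorly, had vehicle values of 7.16, 7.1, 7.36 and 7.43 and BIO values of 7.12, 7.03, 7.16 and 7.11. In all 4 pairs BIO was lower, with differences of −0.04 in pair 1 and −0.33 in pair 4 at the extremes, and the groups overlapped (log2 change −0.16, 95% interval −0.29 to −0.02, limma adjusted p = 0.0748, 0.0292 to 0.701 over 13 alternatives). Adcy3, the cyclase of olfactory neurons and cilia, was lower in 3 of 4 pairs, and pair 1 went the other way by 0.09 (log2 change −0.17, adjusted p = 0.102). Adcy3 passed without replicate 1 (adjusted p = 0.0145), with cyclic loess (0.0452) and in pairs 3 and 4 alone (0.0481). Over all 13 alternatives its adjusted p ran from 0.0145 to 0.473. Adcy9 passed with cyclic loess (0.0292), with the filter at the median brightness (0.0398) and in pairs 3 and 4 alone (0.034).

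The soluble, bicarbonate-activated Adcy10 and the calcium-stimulated Adcy1 and Adcy8 were dim. Adcy10 had a log2 change of −0.13 (adjusted p = 0.0686), lower in 4 of 4 pairs at a vehicle mean of 4.02. Adcy1 and Adcy8 had log2 changes of 0.05 and −0.05. No interval of the 9 cyclases that did not pass reached below −0.33 or above 0.17 log2.

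**Figure D1:**
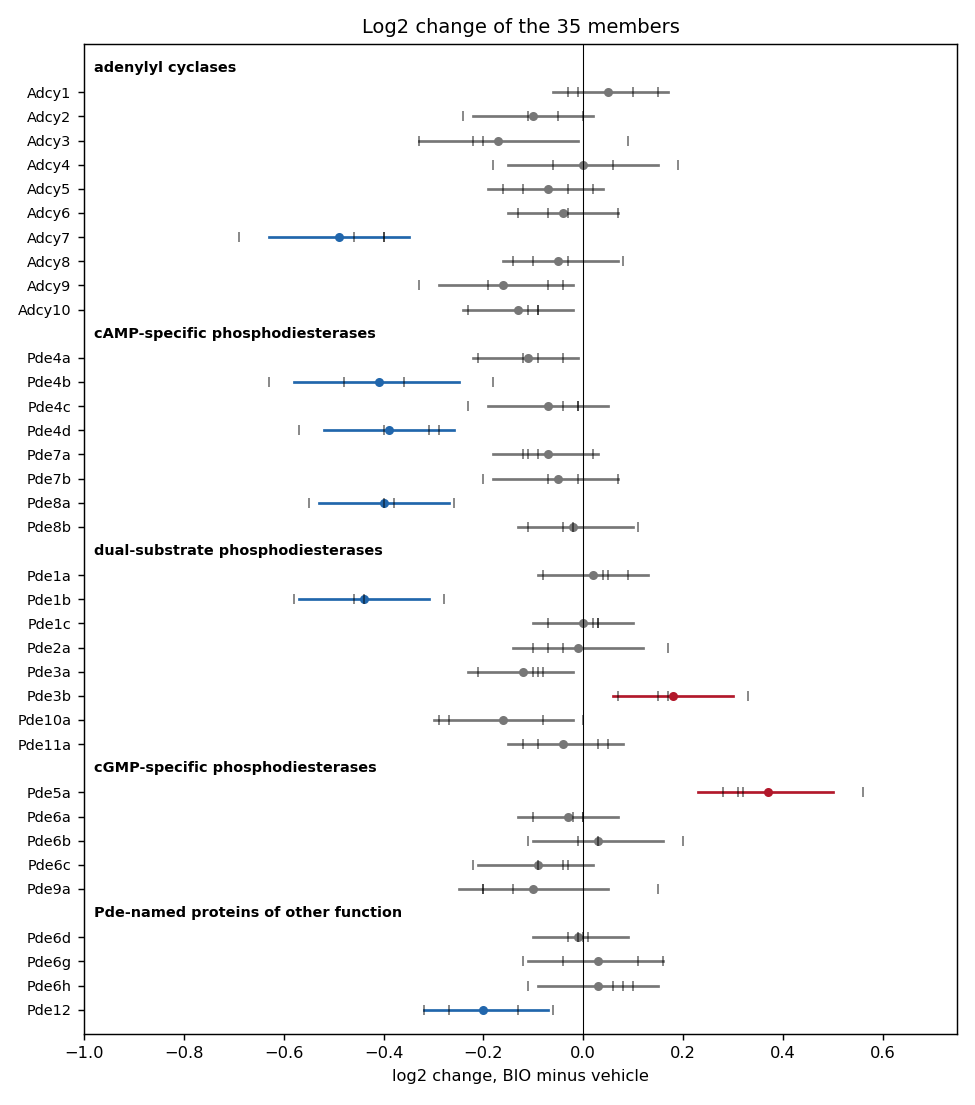
Log2 change (BIO minus vehicle, horizontal axis) of each of the 35 genes grouped by role, with the estimate as a point, its 95% interval as a bar and the 4 pairs as ticks. Blue marks the 6 genes past the threshold that fell, red the 2 that rose and grey the 27 that did not pass, whose estimates lie between −0.17 and 0.05.

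Of the 8 phosphodiesterases that hydrolyse cAMP only, Pde8a, Pde4d and Pde4b fell, none rose and 5 did not pass. Pde8a encodes a phosphodiesterase with high affinity for cAMP. Its vehicle values were 9.18, 9.03, 9.41 and 9.47 log2 and its BIO values 8.8, 8.77, 9.01 and 8.91. No BIO array reached the lowest vehicle array, and within each group pairs 3 and 4 lay above pairs 1 and 2. Expression was 1.32-fold lower (log2 change −0.40 ± 0.06, SE, limma adjusted p = 0.000815, 4 of 4 pairs).

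Pde8b, the paralogue of Pde8a that is linked to human adrenal hyperplasia, had a vehicle mean of 4.92 ± 0.11 log2 and a BIO mean of 4.9 ± 0.06 (SD, n = 4). Its log2 change was −0.02 (95% interval −0.13 to 0.10, adjusted p = 0.839). This interval and that of Pde8a (−0.53 to −0.27) did not overlap; the difference between the paralogues was not tested.

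The Pde4 genes encode the cAMP phosphodiesterases that rolipram inhibits. Pde4d had vehicle values of 8.03, 8.11, 7.98 and 8.02 log2 and BIO values of 7.75, 7.54, 7.58 and 7.7. The vehicle arrays of Pde4d lay within 0.13 of each other, the narrowest vehicle range among the 8 genes that passed, and all 4 BIO arrays were below them. Expression was 1.31-fold lower (log2 change −0.39 ± 0.06, SE, limma adjusted p = 0.00108). Pde4b had vehicle values of 6.21, 6.28, 5.96 and 5.66 and BIO values of 5.73, 5.92, 5.33 and 5.48. The groups of Pde4b overlapped, but within each pair the BIO array was lower, by between 0.18 (pair 4) and 0.63 (pair 3). Its log2 change was −0.41 ± 0.07 (SE, limma adjusted p = 0.00268), and its mean was below the median of all genes. Pde4b missed the threshold in 2 of 12 alternatives, the fit with no pair block (adjusted p = 0.0881) and the authors' deposited paired test (0.0841 after adjustment), and its lowest adjusted p over the 12 was 0.00125.

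The other Pde4 genes did not pass. Pde4a had vehicle values of 7.25, 7.05, 7.25 and 7.25 and BIO values of 7.03, 7.02, 7.13 and 7.17, with vehicle replicate 2 apart from the other vehicle arrays. It was lower in 4 of 4 pairs (log2 change −0.11, 95% interval −0.22 to −0.01, adjusted p = 0.104), and it passed with cyclic loess (0.0382) and with the filter at the median brightness (0.0471), with values up to 0.339 over 13 alternatives. Pde4c, at a vehicle mean of 4.85, had a log2 change of −0.07, most of it from pair 3 (−0.23). Of the Pde7 genes, which encode rolipram-insensitive cAMP phosphodiesterases, Pde7a had a log2 change of −0.07 (95% interval −0.18 to 0.03) at a vehicle mean of 8.46 ± 0.06 (SD, n = 4), and the dim Pde7b had one of −0.05.

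**Figure D2:**
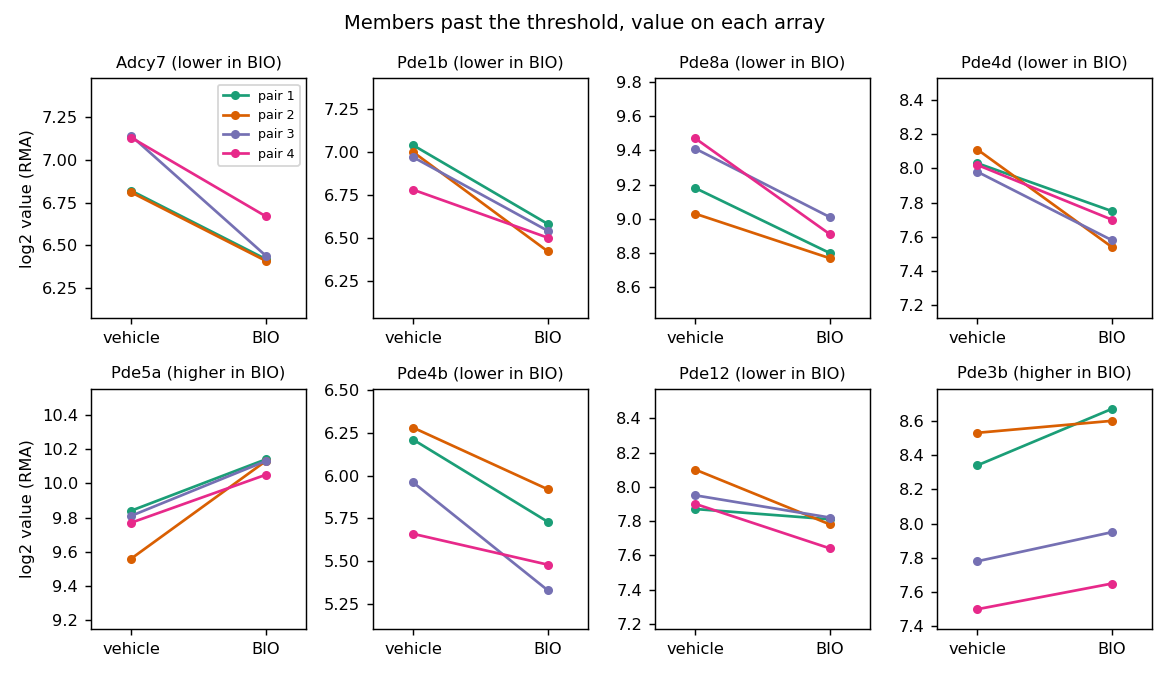
Log2 value (RMA, vertical axis, 1.4 log2 units high in every panel) on each of the 8 arrays for the 8 genes past the threshold, with a line joining the vehicle and BIO array of each pair. All 4 lines go the same way in every panel, and in Pde3b, Pde4b, Pde8a and Pde12 the vehicle arrays span more than the change with BIO.

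Among the 8 phosphodiesterases that hydrolyse both cyclic nucleotides, Pde1b fell, Pde3b rose and 6 did not pass. Pde1b is activated by calcium and calmodulin. Its vehicle values were 7.04, 7, 6.97 and 6.78 log2 and its BIO values 6.58, 6.42, 6.54 and 6.5. Every BIO array was below every vehicle array. Expression was 1.36-fold lower (log2 change −0.44 ± 0.06, SE, limma adjusted p = 0.00052, 4 of 4 pairs). The other calcium-activated members, Pde1a and Pde1c, had log2 changes of 0.02 and 0 at vehicle means of 3.76 and 4.75.

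Pde3b encodes a phosphodiesterase that cGMP inhibits and insulin activates. Its vehicle values were 8.34, 8.53, 7.78 and 7.5 log2 and its BIO values 8.67, 8.6, 7.95 and 7.65. Pairs 1 and 2 were higher than pairs 3 and 4 in both groups, and the groups overlapped. The rise of 0.18 ± 0.05 (SE, limma adjusted p = 0.0327, 4 of 4 pairs) was smaller than the vehicle range of 1.03. Pde3b missed the threshold when the block was dropped (adjusted p = 0.712), without replicate 1 (0.108), 3 (0.0963) or 4 (0.0709), with cyclic loess (0.0759), in pairs 1 and 2 (0.147) or 3 and 4 alone (0.107) and by the authors' deposited paired test (0.131 after adjustment). The lowest of its 13 values was 0.0151.

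Pde3a, the paralogue of Pde3b, had a log2 change of −0.12 (adjusted p = 0.0809), lower in 4 of 4 pairs at a vehicle mean of 4.8. Pde10a, best known from the striatum, had vehicle values of 7.91, 8.12, 8.03 and 7.97 and BIO values of 7.91, 8.04, 7.74 and 7.71. Its log2 change was −0.16 (adjusted p = 0.0809), and it was near 0 in pair 1, −0.08 in pair 2, −0.29 in pair 3 and −0.27 in pair 4. Pde10a passed without replicate 1 (adjusted p = 0.0433), with the filter at the median brightness (0.0447), with cyclic loess (0.0313) and in pairs 3 and 4 alone (0.0192). Its 13 values ran from 0.0192 to 0.793. Pde2a, which cGMP stimulates, and Pde11a, the adrenal phosphodiesterases named above, had log2 changes of −0.01 (95% interval −0.14 to 0.12) and −0.04 (−0.15 to 0.08) at vehicle means of 5.35 and 4.72.

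Of the 5 genes for the catalytic subunits of cGMP phosphodiesterases, Pde5a rose and 4 did not pass. Pde5a encodes the enzyme that sildenafil inhibits. Its vehicle values were 9.84, 9.56, 9.81 and 9.77 log2 and its BIO values 10.14, 10.13, 10.13 and 10.05. The BIO arrays lay close together, all above the vehicle arrays. Expression was 1.29-fold higher (log2 change 0.37 ± 0.06, SE, limma adjusted p = 0.00162, 4 of 4 pairs), and the authors' deposited paired test, after adjustment, missed the threshold (0.0548), alone among 13 alternatives, whose lowest value was 0.000118. Pde9a, the other widely known cGMP phosphodiesterase outside the eye, had a log2 change of −0.10 (95% interval −0.25 to 0.05) at a vehicle mean of 4.51, and pair 3 went the other way by 0.15.

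The catalytic genes of the photoreceptor enzyme, Pde6a, Pde6b and Pde6c, had vehicle means of 4.74, 4.17 and 4.22 and log2 changes of −0.03, 0.03 and −0.09. Of the 4 remaining members, Pde6g and Pde6h encode inhibitory subunits of that enzyme and had log2 changes of 0.03 each at vehicle means of 5.21 and 4.93. Pde6d encodes a chaperone of prenylated proteins rather than a phosphodiesterase. It had the highest mean of the 35, with vehicle values of 11.66, 11.59, 11.62 and 11.8 and BIO values of 11.65, 11.59, 11.63 and 11.77. No pair of Pde6d differed by more than 0.03, and its log2 change was −0.01 (95% interval −0.10 to 0.09).

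Pde12 encodes an enzyme that trims poly(A) tails in mitochondria and is not a phosphodiesterase of cyclic nucleotides. Its vehicle values were 7.87, 8.1, 7.95 and 7.9 log2 and its BIO values 7.81, 7.78, 7.82 and 7.64, without overlap. The log2 change was −0.20 ± 0.06 (SE, limma adjusted p = 0.0269). Pde12 was the only member with a second probe set, and that dimmer probe set went the other way in 3 of 4 pairs, from 5.29 ± 0.10 to 5.45 ± 0.15 log2 (SD, n = 4). With the mean of both probe sets the call was lost (log2 change −0.02, adjusted p = 0.857), as it was without the pair block (0.0528), without replicate 2 (0.106), 3 (0.0592) or 4 (0.0986), in pairs 1 and 2 (0.166) or 3 and 4 alone (0.0758) and by the authors' deposited paired test (0.133 after adjustment). The lowest of the 13 values of Pde12 was 0.0103.

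Over the family, 6 of the 35 genes had BIO and vehicle arrays that did not overlap (Adcy7, Pde1b, Pde8a, Pde4d, Pde5a and Pde12), against 27% of all genes. The calls of Adcy7, Pde1b, Pde8a and Pde4d held under all 13 alternatives, with adjusted p of at most 0.0386, 0.0371, 0.0413 and 0.0475. Without replicate 1, 2, 3 and 4 in turn, the log2 change of Adcy7 stayed between −0.518 and −0.42 and that of Pde8a between −0.445 and −0.349.

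**Figure D3:**
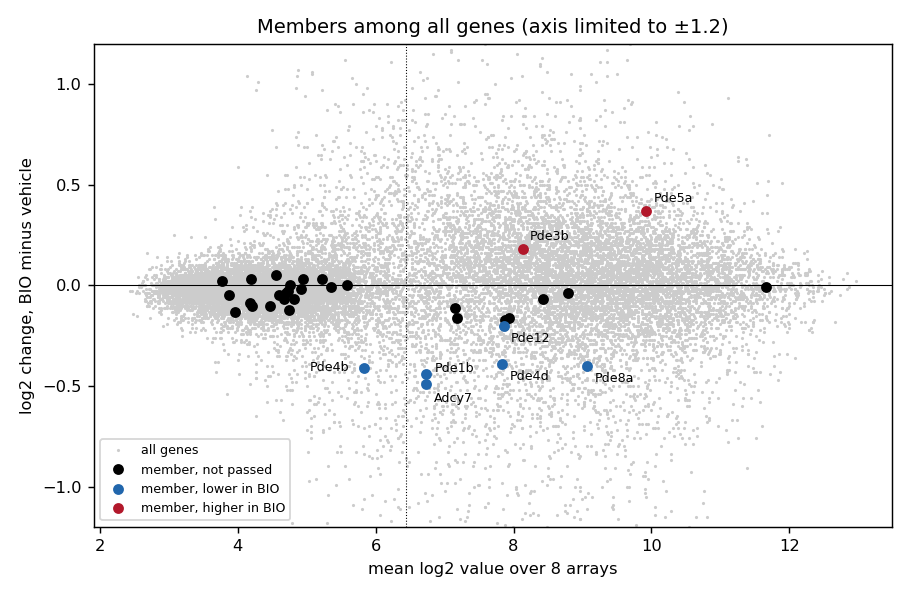
Log2 change (BIO minus vehicle, vertical axis) against the mean log2 value over 8 arrays (horizontal axis) for all genes as grey dots and the 35 members as larger points (black, not passed; blue, lower; red, higher), with the median of all genes as a dotted line; 194 genes lie beyond the axis limit of 1.2. Most members lie left of the dotted line and near 0, and 7 of the 8 that passed lie right of it.

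The vehicle arrays differed among themselves as much as BIO moved some of these genes. With 1 vehicle array per pair, their range does not separate differences between pairs from noise between arrays. Across the 4 vehicle arrays the range was larger than the size of the BIO change in 30 of the 35 genes, 4 of them among the 8 that passed (Pde3b, Pde4b, Pde8a and Pde12). The 27 that did not pass had a median change of 0.05 log2 in size, which a range over 4 arrays easily exceeds. The share over all genes was not computed. The pair term of the same fit, a limma F test added after the data were seen, passed for Pde3b (adjusted p = 0.000698) and Pde4b (0.0444), 2 of the 35 genes, against 5.4% of all genes. In both genes the vehicle values of pairs 1 and 2 were above those of pairs 3 and 4. Pde8a (adjusted p = 0.104) and Adcy7 (0.162), with vehicle values higher in pairs 3 and 4, did not pass this test. Pde12 (0.521) did not pass it either.

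**Figure D4:**
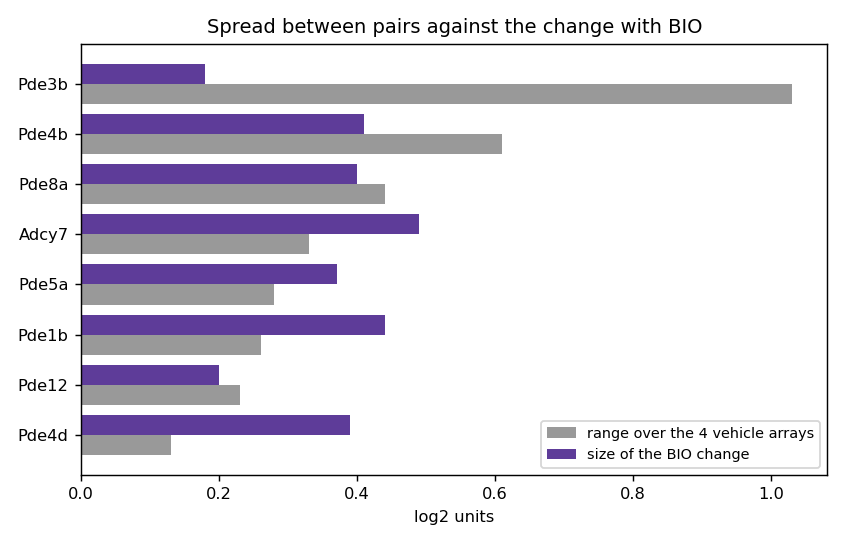
Range over the 4 vehicle arrays (grey bars) and size of the BIO change (purple bars), in log2 units, for the 8 genes past the threshold. The range exceeds the change in Pde3b, Pde4b, Pde8a and Pde12, most of all in Pde3b (1.03 against 0.18).

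The same workbook gives the authors' fold ratios and p-values of another experiment, headed as 3 Wnt against 4 SF1 samples, whose cells and treatment the labels do not describe. In the authors' deposited table, 10 of the 35 genes (28.6%) had an unadjusted p below 0.05 there, 5 with a ratio above 1 and 5 below, against 12.9% of all genes (6.77% above and 6.12% below). Adjusted over all genes, 0 of the 35 and 0 of all genes passed. Of the genes that BIO changed, Pde5a had a ratio of 1.89 (p = 0.00641), Adcy7 one of 0.722 (p = 0.0375) and Pde12 one of 0.642 (p = 0.0398) in the authors' deposited table. These 3 are the BIO-changed genes past that unadjusted threshold, and each ratio lay on the same side of 1 as its change with BIO. The ratios of the other genes that BIO lowered were 0.88 for Pde1b, 0.823 for Pde8a, 0.843 for Pde4d and 0.467 for Pde4b in the authors' deposited table, none past it, and Pde3b, which rose with BIO, had 0.695 (p = 0.216). Genes that did not pass with BIO but had an unadjusted p below 0.05 in the authors' deposited table included Pde7b (0.456, p = 0.0431), Adcy4 (0.546, p = 0.0171), Adcy9 (1.61, p = 0.0261) and Pde8b (1.59, p = 0.0499).

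Upstream of the cyclases, 4 of 21 receptors that couple to the stimulatory G protein fell, 0 rose and 17 did not pass. These 4 are 19% of the list, against 32.7% of all genes, and 20 of the 21 were below the median brightness, where 13.4% of all genes passed. The median log2 change was −0.03. The largest fall was that of Mc2r, which binds adrenocorticotropic hormone, from vehicle values of 9.1, 8.44, 8.79 and 8.59 to BIO values of 7.11, 6.61, 6.61 and 6.36 log2. Adcyap1r1, the receptor for the neuropeptide PACAP, had vehicle values of 6.8, 7.3, 6.46 and 5.89 and BIO values of 4.99, 4.83, 4.53 and 4.69, without overlap. It was 3.61-fold lower (log2 change −1.85 ± 0.16, SE, limma adjusted p = 7.41e-05), a change larger than that of any cyclase or phosphodiesterase. Ptger4, a prostaglandin receptor, fell by 0.27. Adora2b, an adenosine receptor, was 1.57-fold lower (−0.65 ± 0.16, adjusted p = 0.015), with −1.3 in pair 4 and −0.43 over the other pairs. Its call was lost without replicate 3 (0.062), in pairs 1 and 2 alone (log2 change −0.25, 0.0555) and by the authors' deposited paired test (0.199 after adjustment).

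Gnas, which encodes the stimulatory α subunit itself, had a mean of 10.2 ± 0.05 log2 on the vehicle arrays and of 10.22 ± 0.03 on the BIO arrays (SD, n = 4), with a log2 change of 0.02 (95% interval −0.08 to 0.11, adjusted p = 0.815). Of the 8 genes listed for G protein subunits and regulators of the cyclases, 1 rose, 3 fell and 4 did not pass. The share past the threshold was 50%, against 32.7% of all genes. Of the 8, 5 were above the median brightness, where 51.9% of all genes passed, and the median log2 change was −0.04. Gnaz rose (log2 change 0.47 ± 0.05, SE, limma adjusted p = 0.00014) and Gnai1 fell (−0.56 ± 0.07, adjusted p = 0.000383), and both encode α subunits that inhibit adenylyl cyclase. Gnai3 and Gnai2, of the same inhibitory kind, fell by less (−0.19 and −0.13, adjusted p = 0.0284 and 0.0446). The call of Gnai3 was lost under 6 of 13 alternatives, with adjusted p up to 0.339.

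Of 25 genes listed for the response to cAMP and its export, including channels opened by cyclic nucleotides, 2 rose, 6 fell and 17 did not pass. The share that passed was 32%, against 32.7% of all genes, and the median log2 change was −0.03. Of the 25, 16 were below the median brightness, where 13.4% of all genes passed, and 9 were above it, where 51.9% did. Prkar2b, a regulatory subunit of protein kinase A, fell from vehicle values of 9.73, 9.89, 9.72 and 9.81 to BIO values of 8.79, 8.71, 8.92 and 8.74 log2, which is 2-fold (log2 change −1 ± 0.07, SE, limma adjusted p = 1.86e-05). Prkaca, its main catalytic subunit, and Prkar1a, another regulatory subunit, fell by less (−0.23 and −0.20, adjusted p = 0.00391 and 0.00711), and neither passed in pairs 1 and 2 alone (0.0531 and 0.136). Rapgef3, the cAMP-activated exchange factor Epac, was 1.5-fold lower (−0.59 ± 0.05), or −0.205 with the mean of all its probe sets. Abcc4, a transporter that exports cyclic nucleotides, and Popdc2, a membrane protein that binds cAMP, rose (0.52 and 0.49, adjusted p = 0.000409 and 0.00137).

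Of 14 anchoring proteins of protein kinase A, 1 rose, 6 fell and 7 did not pass. This is 50% of the list, against 32.7% of all genes, and the median log2 change was −0.11. Of the 14, 9 were above the median brightness, where 51.9% of all genes passed, and 5 were below it, where 13.4% did. Akap13 fell most (log2 change −0.79 ± 0.06, SE, limma adjusted p = 3.23e-05), followed by Akap2 (−0.39 ± 0.05), and Pde4dip, which anchors Pde4 enzymes and is no phosphodiesterase, rose (0.25 ± 0.05, adjusted p = 0.00845). The call of Pde4dip was lost in pairs 1 and 2 alone (0.0515) and by the authors' deposited paired test (0.083 after adjustment). Of 22 CREB factors and genes that cAMP is known to induce, 2 rose, 10 fell and 10 did not pass. The 12 that passed are 54.5%, against 32.7% of all genes, and the median log2 change was −0.12. Of the 22, 18 were above the median brightness, where 51.9% of all genes passed, and 4 were below it, where 13.4% did. The greatest falls in this list were those of Star, Fos and Dusp1 (−1.89, −1.37 and −1.02), and the 2 that rose were Ppargc1a and Nr4a2 (0.48 and 0.41). Crem, a CREB-family factor that cAMP induces, did not pass (0.06, 95% interval −0.04 to 0.16). Ptger4, Gnai2, Popdc2, Ppargc1a, Nr4a2, Slc18a1, Col1a1, Cd68 and Cd14 were named after their values were seen.

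**Figure D5:**
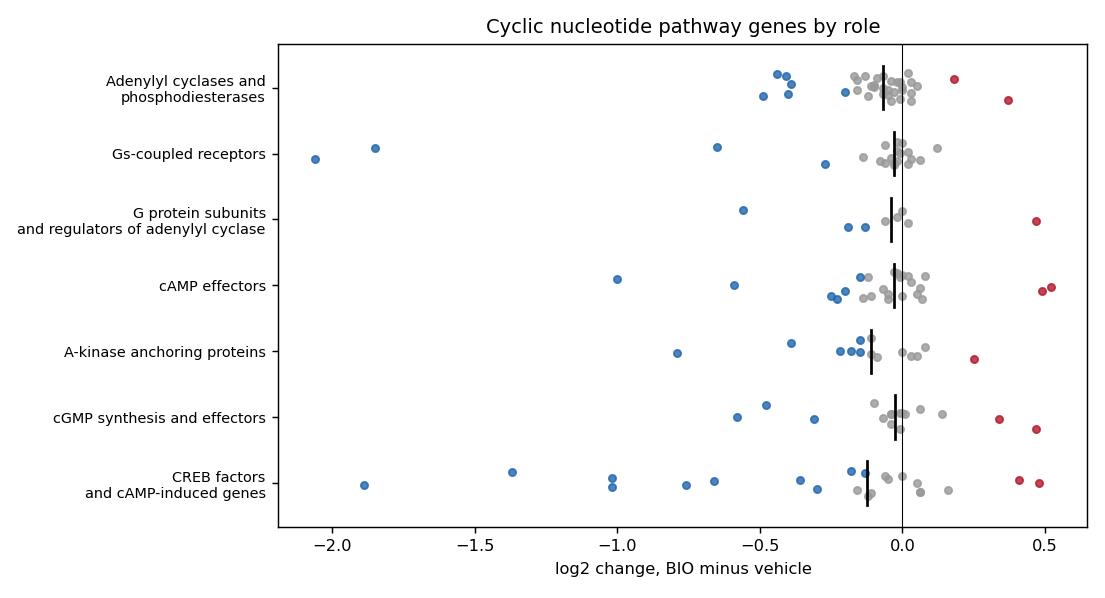
Log2 change (BIO minus vehicle, horizontal axis) of the 35 genes and of the members of 6 lists of the cyclic nucleotide pathway, 1 point per gene, spread vertically at random within a row, with the median as a black bar. Blue points fell, red rose and grey did not pass; the cyclases and phosphodiesterases span −0.49 to 0.37, while the receptors reach −2.06.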

How the data were processed

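Total RNA (250 ng, from 250000 cells per sample) was labelled and hybridised to 8 arrays. The authors deposited log2 values made by RMA (background correction, quantile normalization and probe set summary, perfect-match probes only) with oligo, per the file headers and the submitters' processing notes. RMA compresses low signals, so changes of dim genes may be understated, which was not tested. The authors' deposited table also gives unadjusted p-values of a paired test and fold ratios, per the file headers. Symbols are those of the deposited annotation, whose genome build no header or label names.

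Each of 20719 symbols was represented by its brightest probe set (mean over 8 arrays). The test was limma 3.58.1 in R 4.3.3, with pair entered as a block; p-values are two-sided and Benjamini-Hochberg adjusted over all symbols, with a threshold of 0.05; intervals are 95%. It was tested on simulated data. Pair numbers come from the titles. Deviations from group means of same-numbered arrays correlated at 0.445, 0.578, 0.385 and 0.617, though in pair 3 the highest correlation with an array of another number was 0.392. An exact sign-flip test of 4 pairs allows no p under 0.125. Promoters came from RefSeq GRCm38.p6. Named genes are members past the threshold, bright members and family neighbours (the remaining members are named only to account for each), up to 3 members past the threshold with the largest change per pathway list, and 6 fixed genes. The members and lists were chosen with earlier results of these data known. Alternatives were no pair block, each pair left out, pairs 1 and 2 or 3 and 4 alone, 2 filters on dim genes, another variance prior, cyclic loess, the mean of all probe sets and the authors' paired test; the pair-term F test was added after the data were seen.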

Additional observations from a re-analysis of the deposited data

Results flagged for a closer look

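In 5 of the 70 groups of 4 arrays formed by the 35 genes, 1 array stood apart from the other 3 by Dixon's test, which chance gives in about 1 group in 20. For Adcy7, BIO replicate 4 was at 6.67 log2 while the other BIO arrays lay between 6.41 and 6.44. For Pde4a, vehicle replicate 2 was at 7.05 and the others at 7.25. For Pde7a, vehicle replicate 3 was at 8.37, below the 8.48 to 8.5 of the others. For Adcy4, vehicle replicate 1 was at 5.66, above the 5.56 to 5.57 of the others, and for Pde3a, BIO replicate 1 was at 4.75, above 4.64 to 4.66. Among the pathway genes named, vehicle replicate 1 of Abcc4 was at 7.79, below the 8.23 to 8.27 of the others.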

How the results depend on the processing

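The count of 2 genes higher in BIO fell to 1 without the pair block, with cyclic loess, and in pairs 1 and 2 or 3 and 4 alone, and to 0 by the authors' paired test; leaving out a pair gave 1 to 2. The count of 6 lower genes became 10 with cyclic loess and 4 to 8 under the other alternatives, 5 to 8 with a pair left out. The members' median of −0.073 became −0.158 when a filter at the median brightness kept 14 members, and ran from −0.09 to −0.062 with a pair left out. Without the replicate block 1 member was higher and 4 lower: Pde4b (−0.413), Pde12 (−0.195) and Pde3b (0.179) missed the threshold, and Adcy7, Pde1b, Pde8a, Pde4d and Pde5a passed it. No called gene changed sign. Among genes not past the threshold the sign turned with cyclic loess for Adcy4 (−0.004). In pairs 1 and 2 alone it turned for Adcy6 (0.021), Pde11a (0.037), Pde2a (0.053), Pde6a (0.00016), Pde6g (−0.08) and Pde6h (−0.026), and in pairs 3 and 4 alone for Adcy4 (−0.001), Pde1a (−0.018), Pde1c (−0.018), Pde6b (−0.039), Pde7b (0.001) and Pde8b (0.035). With a pair left out, the sign turned in some fits for Adcy4, Pde1c, Pde2a, Pde6b, Pde6g and Pde8b. Over all fits with a pair left out, the change ran from −0.062 to 0.064 for Adcy4, −0.007 to 0.026 for Pde1c and −0.069 to 0.024 for Pde2a. It ran from −0.028 to 0.076 for Pde6b, −0.017 to 0.078 for Pde6g and −0.059 to 0.015 for Pde8b. The cause was not tested. Over all genes, 6767 passed, 4483 in pairs 1 and 2 alone and 3947 by the authors' paired test. The number of arrays limits precision, and the 21 dim members have no detection calls.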

Other observations

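Of 16 genes of cGMP synthesis and action, 2 rose, 3 fell and 11 did not pass, 13 of the 16 being below the median brightness of all genes. The share that passed was 31.2%, against 32.7% of all genes, 13.4% of those below that median and 51.9% of those above it. The median log2 change was −0.02. The cGMP-dependent kinases fell: Prkg1 from vehicle values of 7.67, 7.62, 7.82 and 7.68 log2 to BIO values of 7.02, 7.19, 7.18 and 7.09 (log2 change −0.58 ± 0.05, SE, limma adjusted p = 8.64e-05), and Prkg2 by 0.48 at a vehicle mean of 5.08. Gucy1a2, a subunit of the nitric oxide receptor, rose (0.47 ± 0.06, adjusted p = 0.000358). The natriuretic peptide receptors, which are themselves guanylyl cyclases, went opposite ways, Npr1 with a log2 change of −0.31 and Npr2 with one of 0.34. Npr1 and Npr2 were named after their values were seen.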
